A study of Mus musculus with 4 samples.

Results

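The 8 genes described here code for factors of cytoplasmic protein synthesis: the elongation factors Eef1a1, Eef1b2, Eef1d, Eef1g and Eef2, the initiation helicases Eif4a1 and Eif4a2, and Eif5a. They were taken by name and by no threshold on measured values, but with earlier results of these data known. They make up 8 of the 27998 genes listed in the Illumina matrices. Their transcripts account for 48 of the 31986 isoforms listed in the Nanopore matrices. The cells came from 1 suspension made from C57BL/6 mouse brain at embryonic day 18 (cortex, hippocampus and sub ventricular zone together), with no treatment or genetic change in any library. Droplet-barcoded cDNA was made from aliquots of 190 and 951 cells, and each cDNA was read both with Illumina short reads, which count UMIs per gene, and with Nanopore long reads, which count UMIs per annotated transcript isoform. The study thus compared the platforms on the same molecules and cell types on the same isoforms. The aliquots are technical replicates of 1 suspension, so every p-value below covers the spread between these aliquots and not the spread between animals.

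During elongation eEF1A brings each aminoacyl-tRNA to the ribosome as a complex with GTP, and the eEF1B complex recharges it by exchanging GDP for GTP. Eef1b2 and Eef1d code for the exchange subunits of eEF1B, whereas Eef1g codes for its structural subunit. eEF2 then moves the ribosome along by 1 codon, and eIF5A, the only protein known to carry hypusine, helps the ribosome through stretches that stall. Before elongation starts, the RNA helicase eIF4A unwinds the messenger leader as part of the cap-binding complex, and its paralogous forms are coded by Eif4a1 and Eif4a2. These messengers are among the abundant transcripts of nearly every cell, and in brain the translation machinery is known to change as progenitors become neurons.

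Cells with at least 1400 detected genes were kept, 186 of 190 and 935 of 951, with 1809081 and 8295650 Illumina UMIs and 993220 and 4889148 Nanopore UMIs. The cells were clustered without the 8 genes and placed in 8 classes by markers. These were radial glia-like, cycling radial glia-like, intermediate progenitor-like, immature and mature glutamatergic-like, immature and mature GABAergic-like, and Cajal-Retzius-like. The first 3 are called progenitor classes below and the next 4 neuron classes. The Cajal-Retzius-like class, with 3 and 13 cells, entered no test. In the cycling cluster all 10 cycling markers were raised over the other cells, but 0 of 10 radial glia markers. Of the 8 intermediate progenitor markers 6 were raised there, so its kind of progenitor is not settled by these lists. The radial glia-like cluster also had all 10 cycling markers raised. The immature GABAergic-like cluster was led by Ebf1, Isl1 and Zfhx3 and the mature one by Sst, Maf and Nxph1, so that type and stage of these neurons cannot be told apart. A list of 6 microglia markers and one of 5 endothelial and mural markers picked out 6 cells, which were left out of the classes. In the remaining sums, 5 erythroid markers together had 571 to 640 CPM in each of the 7 tested classes. The 4 markers of oligodendrocyte precursors summed to 33.6 to 89.6 CPM in the progenitor classes and at most 2.73 CPM in the neuron classes, and their part in the differences between progenitors and neurons was not tested. There were 13 barcodes that occurred in both aliquots, and values without those cells are given beside the results they touch. Median depth ran from 4922.5 Illumina UMIs per cell in the mature GABAergic-like class to 11430 in the mature glutamatergic-like class, so levels are given as CPM, UMI counts scaled to the same total for each class. In such sums, fewer cells of a type and less RNA per cell cannot be told apart.

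Both platforms showed the 8 genes as abundant transcripts, and 7 of the 8 took a larger part of the Nanopore than of the Illumina libraries. Together they held 1.15% and 1.20% of the Illumina UMIs in the aliquots of 190 and 951 cells, and 1.62% and 1.70% of the Nanopore UMIs. A UMI counts each captured molecule once, so numbers of captured molecules can be set side by side for different genes within the Illumina libraries. How far capture differed between genes was not measured here. Eef1a1 was the highest, with 10027 and 48364 Illumina UMIs, at ranks 8 and 9 of all genes. Eef2 followed with 2969 and 13894 UMIs. Eif4a1 had 2288 and 11350 and Eef1g 2020 and 9109 UMIs. These 4 genes kept the same order in both aliquots. Eif5a and Eef1b2 lay close together, with 1293 and 1283 UMIs in the smaller aliquot and 6077 and 6057 in the larger. Eif4a2 had 690 and 3281 UMIs. Eef1d was the lowest, with 277 and 1257.

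A Nanopore UMI was counted only where its consensus read matched the whole exon structure of an annotated isoform. The study also assigned Nanopore UMIs only by matching them to Illumina UMIs of the same cell and the same gene or genomic region. Nanopore counts are therefore not independent of the Illumina counts, and a lower Nanopore count was set by the method. Each of the 8 genes had fewer Nanopore than Illumina UMIs. Over all genes the Nanopore total was 54.9% and 58.9% of the Illumina total. For 7 of the genes this percentage lay higher, between 67.8% (Eef2, aliquot of 190 cells) and 91.6% (Eef1g, aliquot of 951 cells). Eif4a2 lay below the whole library in both aliquots, at 44.6% and 52.5%. In the edgeR quasi-likelihood test of the platforms, 7 of the 8 genes were called higher in the Nanopore libraries and 0 lower, where called means an adjusted p under 0.05 over all 9841 genes tested. Of all genes, 20.1% were called higher and 30.4% lower. The 7 differences lay between a log2 fold of 0.48 (SE 0.09, adjusted p = 0.0073) for Eef2 and 0.76 (SE 0.07, adjusted p = 0.00083) for Eef1g. Eif4a2 differed by -0.09 (SE 0.11, adjusted p = 0.526). The median over the 8 genes was 0.66, beside -0.04 over all genes. These values come from a fit without the aliquot, which pairs the libraries of the platforms. With the aliquot in the model 7 of the 8 genes were again called higher and 0 lower. In that fit 6962 of 9841 genes were called in either direction, beside 4969 without the aliquot.

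**Figure D1:**
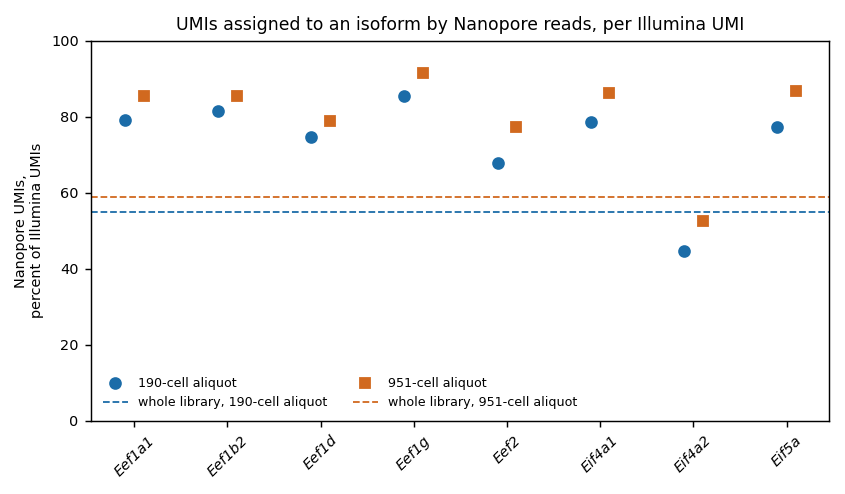
Nanopore UMIs as a percentage of Illumina UMIs (vertical axis) for each of the 8 genes (horizontal axis), with circles for the aliquot of 190 cells, squares for the aliquot of 951 cells and dashed lines for the whole library of each aliquot. Eif4a2 is the only 1 of the 8 below the lines in both aliquots, at 44.6% and 52.5%.

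The gap of Eif4a2 was not the same in every class. With both aliquots summed, Nanopore UMIs of Eif4a2 were 31.4% of its Illumina UMIs in the radial glia-like class (58 against 185) and 36.1% in the cycling radial glia-like class (97 against 269). The percentage was 49.6% in the intermediate progenitor-like class, between 47.7% and 56.1% in the neuron classes and 41.2% in the Cajal-Retzius-like class. For its paralog Eif4a1 the percentage stayed between 83.5% and 87.1% in the same 7 classes of progenitors and neurons, and for all genes between 57.2% and 59.5%. In the single aliquots of 190 and 951 cells, Eif4a2 was at 15.8% (6 against 38 UMIs) and 35.4% in radial glia-like cells. It was at 40.5% and 34.2% in cycling radial glia-like cells and at 37.9% and 54.3% in mature GABAergic-like cells. The order of the classes was thus not the same in both aliquots. A difference of this gap between classes was not tested.

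Differences between cell classes were tested on Illumina UMIs summed per class and aliquot, in 1 edgeR quasi-likelihood fit over 8454 genes. The 6 comparisons share class sums, so their values are given side by side and are not independent of each other. When the 4 neuron classes were set against the 3 progenitor classes, 3 of the 8 genes were called higher and 4 lower, where 19.5% of all genes were called higher and 20.1% lower. The median log2 fold was -0.12 over the 8 genes and -0.01 over all genes. Summed over the 8 genes, the messengers took between 1.09% and 1.33% of the UMIs in each of these 7 classes and both aliquots. Single members were thus called in both directions while their sum stayed within this range. Eef1a1, not called in this comparison, held 10027 of the 20847 and 48364 of the 99389 Illumina UMIs of the 8 genes. The sum therefore says little about the smaller members.

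**Figure D2:**
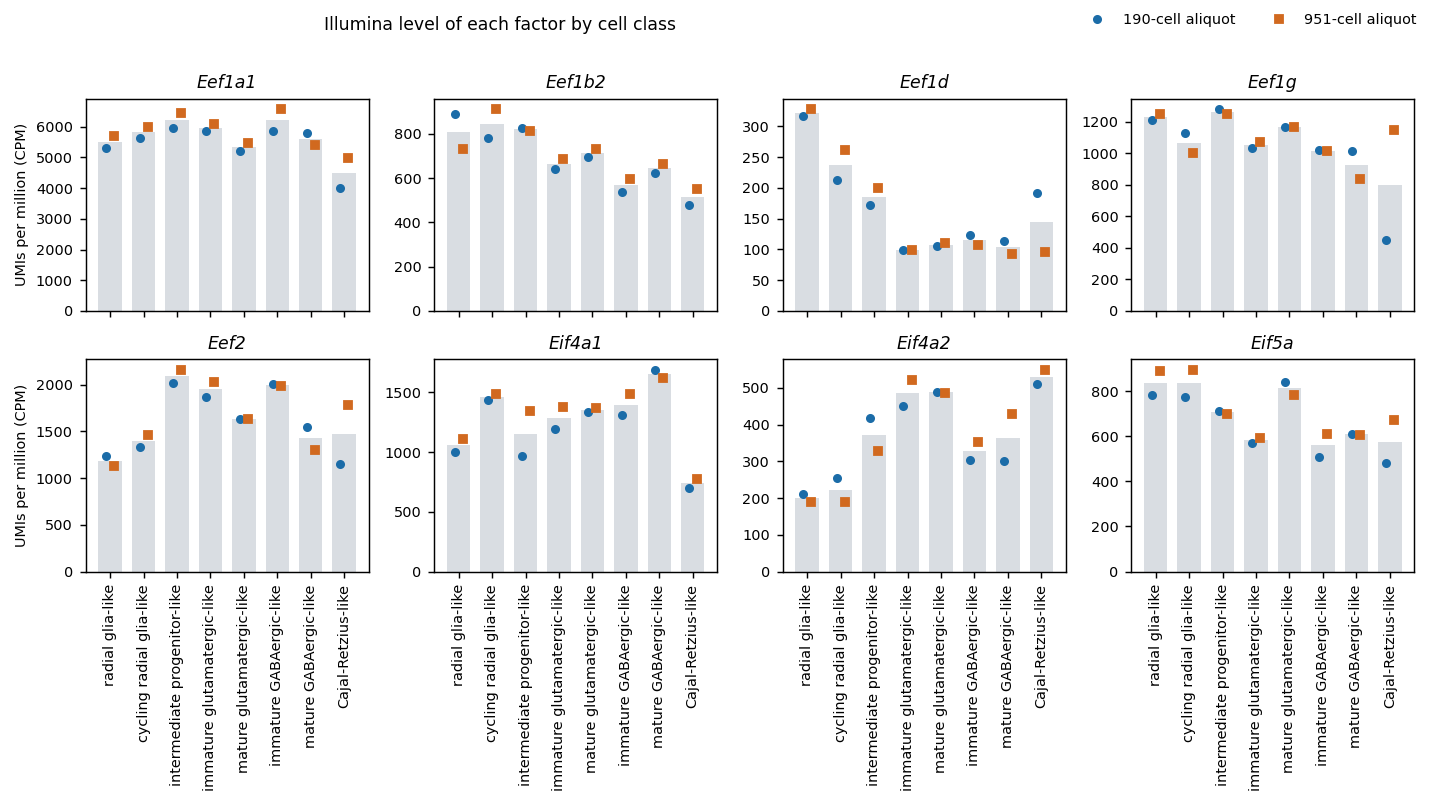
Level of each gene in CPM of the class total (vertical axes, linear and starting at 0) in the 8 cell classes (horizontal axes), with circles for the aliquot of 190 cells, squares for the aliquot of 951 cells and bars for their mean. Eef1d is highest in the radial glia-like class (316 and 329 CPM) and lies near 100 CPM in the neuron classes. Eif4a2 is lowest in the radial glia-like and cycling radial glia-like classes.

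Eef1a1, the factor that delivers aminoacyl-tRNA, varied little between classes. Its level ran from 5200.1 CPM in the mature glutamatergic-like class of the smaller aliquot to 6587 CPM in the immature GABAergic-like class of the larger aliquot. Ordered by mean level, the immature GABAergic-like class came first, followed by the intermediate progenitor-like, immature glutamatergic-like, cycling radial glia-like, mature GABAergic-like, radial glia-like and mature glutamatergic-like classes, and each class overlapped the next over the aliquots. The Cajal-Retzius-like class lay lowest, at 3994 and 4969 CPM. Neurons and progenitors differed by a log2 fold of -0.03 (SE 0.06, edgeR adjusted p = 0.753). With the aliquot in the model, Eef1a1 was called higher in intermediate progenitor-like than radial glia-like cells (log2 fold 0.18, adjusted p = 0.042) and lower in mature than immature GABAergic-like cells (-0.29, adjusted p = 0.0019), where 10.4% of all genes were called higher in the first comparison and 3.41% lower in the second. Without the aliquot in the model the adjusted p-values were 0.312 and 0.249.

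The 3 subunits of the eEF1B exchange complex did not share 1 pattern. Eef1b2, the alpha exchange subunit, had 888 and 731 CPM in radial glia-like cells, 779 and 913 in cycling radial glia-like cells and 828 and 815 in intermediate progenitor-like cells. In the neuron classes it lay between 538 and 733 CPM. Neurons were lower by a log2 fold of -0.36 (SE 0.09, adjusted p = 0.0009), and every one of the 11 alternative analyses kept this call. Without the shared barcodes the log2 fold was -0.33 (adjusted p = 0.0045). No other comparison called Eef1b2.

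Eef1g codes for the structural subunit. Its level was 1209 and 1249.5 CPM in radial glia-like cells and 1282 and 1246 in intermediate progenitor-like cells. Mature glutamatergic-like cells had 1167 and 1164 CPM and mature GABAergic-like cells 1016 and 837. Cycling radial glia-like cells, at 1127 and 1000.4 CPM, lay below the mature glutamatergic-like cells in both aliquots. They overlapped the immature glutamatergic-like cells (1032 and 1072 CPM). Mature GABAergic-like cells were lower than mature glutamatergic-like cells by a log2 fold of -0.46 (SE 0.15, adjusted p = 0.036), a comparison in which 3.51% of all genes were called higher and 5.5% lower. Neurons were lower than progenitors by -0.20 (SE 0.08, adjusted p = 0.032). This second call was lost in 6 of 11 alternatives, among them the one without the shared barcodes (-0.19, adjusted p = 0.079). The call between the mature classes was lost in 3 of 11.

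Eef1d, the delta exchange subunit, differed most. It had 316 and 329 CPM in radial glia-like cells, 213 and 261 in cycling radial glia-like cells and 172 and 199.9 in intermediate progenitor-like cells. In the 4 neuron classes every value lay between 92.4 and 123 CPM, below every progenitor value. The 3 progenitor classes were separated from each other in both aliquots, while the neuron classes overlapped. Neurons were lower than progenitors by a log2 fold of -1.24 (SE 0.11, adjusted p = 8.3e-12), which is 0.423 times the progenitor level. Mature glutamatergic-like cells were lower than radial glia-like cells by -1.53 (SE 0.20, adjusted p = 4.3e-08), where 17.1% of all genes were called higher and 17.0% lower.

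Already the intermediate progenitor-like cells were lower in Eef1d than radial glia-like cells, by a log2 fold of -0.76 (SE 0.21, adjusted p = 0.0068), where 7.62% of all genes were called higher and 8.36% lower. DESeq2 gave an adjusted p of 0.065 for this step. In the 3 comparisons among neurons Eef1d was not called, with log2 folds from -0.30 to 0.19. Over the 11 alternatives the difference between neurons and progenitors stayed between -1.49 and -1.19. Without the shared barcodes it was -1.23 (adjusted p = 1.3e-11).

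Eef2, the translocation factor, was called in both directions. Its level was 1231 and 1132 CPM in radial glia-like cells, 1336 and 1463 in cycling radial glia-like cells and 2018 and 2162 in intermediate progenitor-like cells. The immature neuron classes stayed near that level, at 1873 and 2029.5 CPM (glutamatergic-like) and 2012 and 1984 CPM (GABAergic-like). The mature classes lay lower, at 1633 and 1631 CPM (glutamatergic-like) and 1545 and 1303 CPM (GABAergic-like). Intermediate progenitor-like cells were higher than radial glia-like cells by a log2 fold of 0.83 (SE 0.14, adjusted p = 1.4e-05), a call kept in all 10 alternatives that could be run. Mature GABAergic-like cells were lower than immature ones by -0.62 (SE 0.14, adjusted p = 0.0038), kept in all 11, where 1.22% of all genes were called higher and 1.62% lower.

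For mature against immature glutamatergic-like cells the log2 fold of Eef2 was -0.19 (SE 0.13, adjusted p = 0.623). The difference between these 2 comparisons, glutamatergic-like minus GABAergic-like, was 0.43 (SE 0.19, edgeR adjusted p = 0.382), where 1.27% of all genes were called positive and 0.745% negative. With the aliquot, which pairs the samples, in the model it was 0.46 (SE 0.12, adjusted p = 0.0084), where 3.38% were called positive and 1.8% negative. Mature glutamatergic-like cells were higher than radial glia-like cells by 0.52 (SE 0.14, adjusted p = 0.0022). At a clustering resolution of 0.5 this value was 0.01 (adjusted p = 0.984), where no intermediate progenitor-like class remained. Both sides of the comparison changed there. The radial glia-like class held 152 instead of 66 cells and the mature glutamatergic-like class 211 instead of 280, and a cluster of 69 cells was unnamed. Against all progenitors the neurons differed by 0.18 (adjusted p = 0.043), which 7 of 11 alternatives did not call. Between the mature classes Eef2 was called lower in GABAergic-like cells with the aliquot in the model (-0.35, adjusted p = 0.0015) but not without it (-0.32, adjusted p = 0.161). In that fit 5.96% of all genes were called higher and 8.73% lower.

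The helicase paralogs differed in pattern. Eif4a2 had 211 and 190.1 CPM in radial glia-like cells and 254 and 189 in cycling radial glia-like cells. It had 417 and 329 CPM in intermediate progenitor-like cells and 452 and 521 in immature glutamatergic-like cells. Mature glutamatergic-like cells had 490.3 and 487 CPM, the GABAergic-like classes between 301 and 429, and Cajal-Retzius-like cells 511 and 550.4. The radial glia-like and cycling radial glia-like classes thus lay below every other class, and the glutamatergic-like classes above the GABAergic-like ones. Neurons were higher than progenitors by a log2 fold of 0.72 (SE 0.11, adjusted p = 1.1e-06). Mature glutamatergic-like cells were higher than radial glia-like cells by 1.35 (SE 0.20, adjusted p = 8.4e-07) and intermediate progenitor-like cells by 0.89 (SE 0.21, adjusted p = 0.0017).

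Every alternative with a test kept these 3 calls of Eif4a2. The Nanopore sums gave the larger values, up to a log2 fold of 2.31 for mature glutamatergic-like against radial glia-like cells, in step with the low Nanopore percentage of Eif4a2 in radial glia-like cells given above. A resolution of 0.5 gave the smaller value, 0.79. For neurons against progenitors the aliquot of 190 cells alone gave 0.40, a value with no test. Without the shared barcodes the log2 fold was 0.70 for neurons against progenitors and 1.39 for mature glutamatergic-like against radial glia-like cells (adjusted p = 3.6e-06 and 1.1e-06). The mature GABAergic-like class differed from the mature glutamatergic-like one in Eif4a2 by -0.47 (SE 0.20, adjusted p = 0.155), and with the aliquot in the model by -0.38 (adjusted p = 0.038).

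Eif4a1 was higher in level than Eif4a2 in every class. By mean level it was lowest in the Cajal-Retzius-like class (703 and 774 CPM), then in the radial glia-like class (998 and 1112 CPM). Intermediate progenitor-like cells, at 963 and 1344 CPM, overlapped the radial glia-like class. The mature GABAergic-like class was highest (1690.2 and 1622 CPM). Cycling radial glia-like cells had 1433 and 1485 CPM. Neurons differed from progenitors by a log2 fold of 0.21 (SE 0.08, adjusted p = 0.046), which only 2 of 11 alternatives called. Mature glutamatergic-like cells differed from radial glia-like cells by 0.40 (SE 0.15, adjusted p = 0.04), called in 5 of 11 alternatives, and without the shared barcodes by 0.34 (adjusted p = 0.122).

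Eif5a followed neither helicase. It had 782 and 889 CPM in radial glia-like cells, 773 and 896 in cycling radial glia-like cells and 711 and 700.5 in intermediate progenitor-like cells. Immature glutamatergic-like cells had 570.1 and 592 CPM and mature glutamatergic-like cells 841 and 785, while both GABAergic-like classes lay between 509 and 612. Neurons were lower than progenitors by a log2 fold of -0.33 (SE 0.09, adjusted p = 0.0023), called in all 11 alternatives. Mature glutamatergic-like cells were higher than immature ones by 0.55 (SE 0.16, adjusted p = 0.043), where 2.15% of all genes were called higher and 1.5% lower. That call was made in 4 of 11 alternatives, and the log2 fold stayed between 0.48 and 0.57.

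Mature GABAergic-like cells were lower in Eif5a than mature glutamatergic-like cells by -0.53 (SE 0.16, adjusted p = 0.032), a call lost with DESeq2 (adjusted p = 0.129) and without a filter on low counts (adjusted p = 0.107). The difference between the mature and immature classes, glutamatergic-like minus GABAergic-like, was 0.57 for Eif5a (SE 0.23, edgeR adjusted p = 0.314). None of the 8 genes was called in that test, in which 170 of 8454 genes were. At an unadjusted p under 0.05 it held 866 genes, among them Eif5a, Eef1g and Eef2. These 3 were called with the aliquot in the model, in which 438 of 8454 genes were. The values were 0.60 for Eif5a (SE 0.15, adjusted p = 0.0059) and 0.52 for Eef1g (SE 0.13, adjusted p = 0.0061), beside that of Eef2 above.

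**Figure D3:**
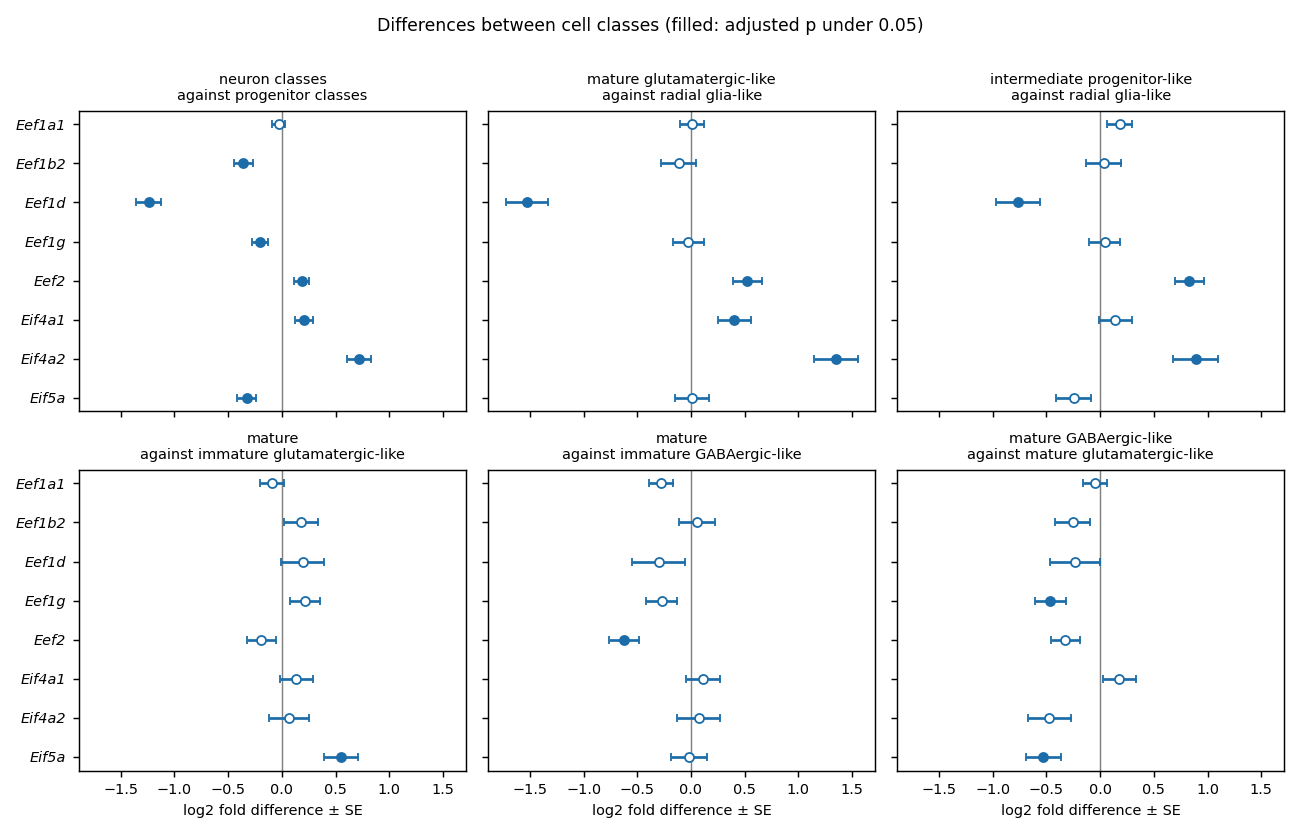
Log2 fold difference with its SE (horizontal axes) for the 8 genes (vertical axes) in the 6 comparisons of cell classes, from 1 edgeR fit, with filled circles where the adjusted p was under 0.05. Eef1d and Eif4a2 lie on opposite sides of 0 in the 3 comparisons with progenitors, at -1.53 and 1.35 for mature glutamatergic-like against radial glia-like cells.

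The same Illumina UMIs can also be counted per cell, which is another view of these counts and not separate evidence. With each cell thinned to 2000 Illumina UMIs, Eef1d was found in 59.1% of radial glia-like cells (39 of 66), 39.8% of cycling radial glia-like cells (47 of 118) and 18.9% of mature glutamatergic-like cells (53 of 280). Without thinning these shares were 95.5%, 84.7% and 68.2%. Eif4a2 went the other way, from 45.5% of radial glia-like cells to 61.4% of mature glutamatergic-like cells after thinning. Eef1a1 was found in 1120 of 1121 thinned cells. No class is known to lack these 8 genes, so a background share could not be set beside them, and the part of free RNA, beside the erythroid markers found in every class, was not tested.

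Eef1d also changed in the isoforms it was made of. The gene lies on chromosome 15 at chr15:75894205-75909556 (GRCm38, minus strand), and 4 of its isoforms reached 5% of its Nanopore UMIs in a class with at least 20 UMIs. Eef1d-204 includes a coding exon of 1130 bases at chr15:75902679-75903808 and codes for 660 codons. Eef1d-218 joins the first, untranslated exon straight to an exon of 124 bases at chr15:75901132-75901255 and codes for 281 codons. Eef1d-205 also leaves out a coding exon of 72 bases at chr15:75900691-75900762 and codes for 257 codons. Eef1d-211 is annotated as a transcript with a retained intron and has no coding sequence. The short proteins are the exchange subunit itself, and the long one is known to carry an added amino-terminal region and to be found in brain.

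Junctions of these isoforms are shown in the sense of the transcript, from Gencode vM21 on GRCm38. The last 15 bases of the upstream exon are in lower case and the first 15 bases of the downstream exon in capitals. The junction printed for Eef1d-218 is also present in Eef1d-205 and tells both short forms from Eef1d-204.
Eef1d-204, into the long coding exon: gaggccaaagcaaaaATGAGGAGTGGGAAG
Eef1d-218, first exon to the exon of 124 bases: gtccttggctggcgtCAGAAAAATGGCTAC
Eef1d-205, over the skipped exon: tccggctcccgccagAGCTCAGGCCCTGGA
The long coding exon opens with the start codon of Eef1d-204, which is the first codon in capitals. In the short forms the start codon lies inside the exon of 124 bases and is the ATG within the capitals of the second junction. The first 150 bases of the long coding exon (chr15:75903659-75903808) and the whole skipped exon are coding and are shown in capitals throughout.
Eef1d-204, first 150 bases of the long coding exon: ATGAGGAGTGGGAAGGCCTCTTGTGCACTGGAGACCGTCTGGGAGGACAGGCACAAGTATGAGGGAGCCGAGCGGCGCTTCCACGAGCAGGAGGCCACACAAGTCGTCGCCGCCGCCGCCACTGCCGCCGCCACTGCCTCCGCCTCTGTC
Eef1d, exon skipped in Eef1d-205: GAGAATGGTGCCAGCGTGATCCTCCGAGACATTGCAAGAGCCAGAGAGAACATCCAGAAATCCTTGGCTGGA

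The long form was rare in radial glia-like cells and the main form in the neuron classes apart from the immature GABAergic-like one. In that class Eef1d-204 and Eef1d-218 held 41 of 85 UMIs each. In its aliquot of 190 cells they held 7 and 11 of 18. Eef1d-204 held 2 of 45 and 2 of 228 Eef1d UMIs in radial glia-like cells of the aliquots of 190 and 951 cells, and 3 of 52 and 22 of 224 in cycling radial glia-like cells. In intermediate progenitor-like cells it held 2 of 23 and 25 of 100. The immature glutamatergic-like cells had 11 of 19 and 70 of 111, and the mature glutamatergic-like cells 22 of 37 and 125 of 202. Every neuron value lay above every progenitor value, the nearest being 38.9% in immature GABAergic-like cells (7 of 18) and 25.0% in intermediate progenitor-like cells.

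With the aliquots summed, the share of Eef1d-204 was 1.47% in radial glia-like cells (exact binomial 95% interval 0.401% to 3.71%, counting error only), 9.06% in cycling radial glia-like cells and 22.0% in intermediate progenitor-like cells. It was 62.3% in immature glutamatergic-like cells (53.4% to 70.7%), 61.5% in mature glutamatergic-like cells, 48.2% in immature GABAergic-like cells and 58.3% in mature GABAergic-like cells. The intervals of the 4 neuron classes overlapped. Cajal-Retzius-like cells had 8 of 14 UMIs. Over all progenitors the share was 5.83% and 8.88% in the aliquots, and over all neurons 54.3% and 60.1%.

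Eef1d-218 made up the remainder in mirror image. It held 81.25% of the progenitor UMIs (546 of 672) and 36.3% of the neuron UMIs (182 of 502). Eef1d-205, without the exon of 72 bases shown above, held 53 of 672 UMIs in progenitors, or 7.89% (5.96% to 10.2%), and 4 of 502 in neurons, or 0.797% (0.218% to 2.03%). In immature glutamatergic-like and mature GABAergic-like cells it had 0 of 130 and 0 of 48 UMIs, which by the exact interval allows up to 2.80% and 7.40%. Eef1d-211 held 3 of 672 and 16 of 502.

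**Figure D4:**
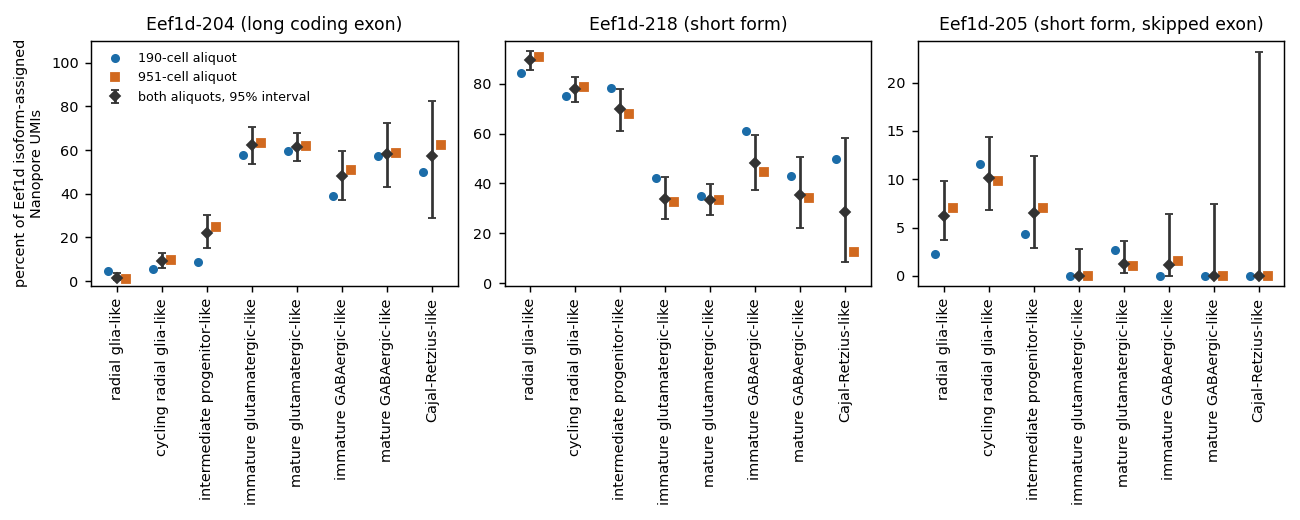
Share of Eef1d-204, Eef1d-218 and Eef1d-205 in the isoform-assigned Nanopore UMIs of Eef1d (vertical axes, percent, a different scale in each panel) by cell class (horizontal axes), with circles for the aliquot of 190 cells, squares for the aliquot of 951 cells and diamonds for both with their exact binomial 95% interval. Eef1d-204 goes from 1.47% in radial glia-like cells to 62.3% in immature glutamatergic-like cells, and Eef1d-218 from 89.7% to 33.8%.

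The change in isoform usage was tested with edgeR over the 644 genes that kept at least 2 isoforms after the filter on low counts, of which Eef1d and Eif5a were the only members. For neurons against progenitors Eef1d was called with an adjusted p of 4.3e-17, rank 4 of 644 by p, where 23.0% of the genes were called. Relative to the other isoforms of the gene, Eef1d-204 was higher by a log2 fold of 2.10, and Eef1d-218 and Eef1d-205 were lower by -0.76 and -2.51. For mature glutamatergic-like against radial glia-like cells the adjusted p was 3.6e-14 (16.0% of genes called), and the share of Eef1d-204 differed by 60.0 percentage points. Without the shared barcodes the 2 differences in share were 50.8 and 59.7 percentage points (adjusted p = 1.8e-16 and 1.8e-13).

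For intermediate progenitor-like against radial glia-like cells the usage of Eef1d differed with an adjusted p of 4.7e-05 (3.73% of genes called) and a difference in share of 20.5 percentage points. That size rests on the larger aliquot: it was 24.1 points there and 4.25 points in the aliquot of 190 cells, where the intermediate progenitor-like class had 23 Eef1d UMIs. In the 3 comparisons among neuron classes Eef1d usage was not called, with adjusted p-values of 0.826 to 0.929. Of all genes 2.02% were called for mature against immature glutamatergic-like cells, 0.932% for mature against immature GABAergic-like cells and 1.55% for mature GABAergic-like against mature glutamatergic-like cells. The other testable member, Eif5a, was not called in any of the 6.

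The total of Eef1d was thus lower in neurons than in progenitors, while the share of Eef1d-204 in it was higher. In Nanopore CPM, Eef1d-218 went from 380.2 and 446 in radial glia-like cells to 43.4 and 42.0 in mature glutamatergic-like cells. Eef1d-204 went from 2 UMIs in each aliquot, which is 4.31 CPM in the larger, to 73.4 and 78.4 CPM. In intermediate progenitor-like cells Eef1d-204 had 22.9 and 70.5 CPM. The level of the long form in the neuron classes lay between 65.7 and 78.6 CPM in both aliquots, while the short Eef1d-218 lay between 38.6 and 116. The 70.5 CPM of Eef1d-204 in intermediate progenitor-like cells of the larger aliquot lay within its neuron range. Levels of single isoforms were not tested. Nanopore UMIs of Eef1d were 87.8% of its Illumina UMIs in radial glia-like cells and 67.3% in mature glutamatergic-like cells, and the part of this gap in the isoform shares was not tested.

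Among the 1115 cells in classes, 213 had UMIs of Eef1d-204 without Eef1d-218, 255 the reverse and 84 had both. In radial glia-like cells 0 of 66 had the long form alone, 58 the short form alone and 3 both. In mature glutamatergic-like cells 78 of 280 had the long form alone, 38 the short form alone and 30 both. Since most of these cells held few Eef1d UMIs, the absence of a form in a cell was not detectable at this depth.

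Eif4a2 changed its share of the helicase messengers and, at low counts, the start of its last exon. Its share of the summed Eif4a1 and Eif4a2 Illumina UMIs was 17.4% and 14.6% in radial glia-like cells of the 2 aliquots and 15.1% and 11.3% in cycling radial glia-like cells. It was 30.2% and 19.7% in intermediate progenitor-like cells, 27.5% and 27.5% in immature glutamatergic-like cells and 26.9% and 26.3% in mature glutamatergic-like cells. In GABAergic-like cells it ran from 15.1% to 20.9%, and in Cajal-Retzius-like cells it was 42.1% and 41.6%. The aliquots stood furthest apart in the intermediate progenitor-like class. Over all classes it was 22.6% in the Illumina and 14.9% in the Nanopore sums. The difference between neurons and progenitors was 9.51 percentage points in both aliquots together and 5.65 points in the aliquot of 190 cells alone.

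**Figure D5:**
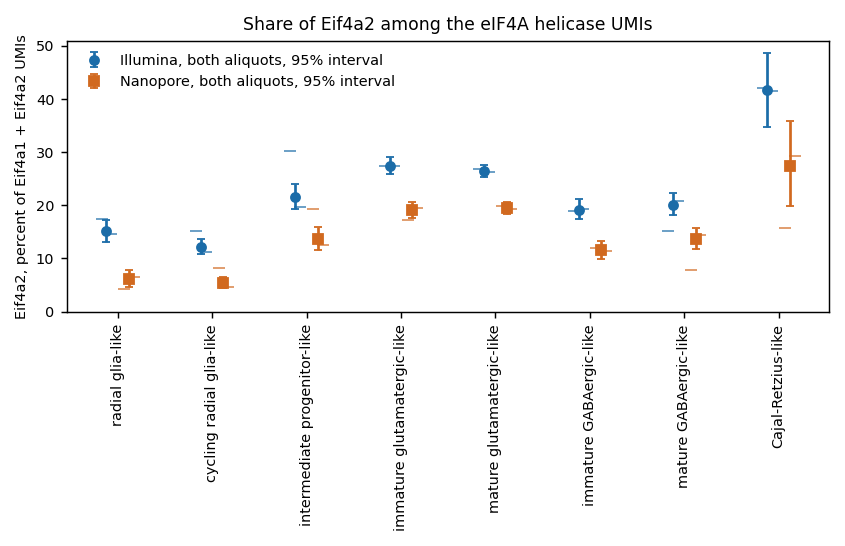
Share of Eif4a2 in the summed UMIs of Eif4a1 and Eif4a2 (vertical axis, percent, from 0) by cell class (horizontal axis), with circles for Illumina and squares for Nanopore, both aliquots summed with exact binomial 95% intervals, and short bars for the single aliquots. In Illumina the share is 12.2% in cycling radial glia-like and 27.5% in immature glutamatergic-like cells, and the Nanopore share is lower in every class.

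The gene lies at chr16:23107444-23114136 (GRCm38, plus strand). Eif4a2-201 codes for 407 codons and Eif4a2-202 for 362. The last exon of Eif4a2-202 starts upstream of that of Eif4a2-201, at 23112351 instead of 23113167, and covers nearly all of it. Both junctions into the last exon are shown as above, with the same upstream exon in lower case.
Eif4a2-201: aaactatattcacagAATTGGCAGAGGGGG
Eif4a2-202: aaactatattcacagGAGTCGATAGCGGCA
Eif4a2-202 held 6 of 68 and 20 of 218 Eif4a2 UMIs in progenitors and 3 of 237 and 15 of 1470 in neurons. Summed, this was 9.09% (6.02% to 13.0%) in progenitors and 1.05% (0.626% to 1.66%) in neurons. With the classes of each side summed, the aliquots of the sides did not overlap. Single classes of the smaller aliquot did, with 0 of 6 UMIs in radial glia-like and 1 of 11 in mature GABAergic-like cells. Nanopore UMIs of Eif4a2 were 31.4% of its Illumina UMIs in radial glia-like cells and 56.1% in mature glutamatergic-like cells. The part of this gap in the isoform shares was not tested. The isoform fell under the filter on low counts, so the main test did not include it. Without the filter the usage of Eif4a2 was called for neurons against progenitors (adjusted p = 0.00095; 2.28% of 7615 genes called) and for mature glutamatergic-like against radial glia-like cells (adjusted p = 0.041; 2.38% called).

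In the other 6 genes a single isoform held nearly all Nanopore UMIs in every class. Eef1a1-201 held 99.98%, Eef1b2-204 98.8%, Eef1g-201 99.4%, Eef2-201 99.99%, Eif4a1-213 99.2% and Eif5a-210 95.9% of the UMIs of their genes. The other Eif5a isoforms code for the same number of codons as Eif5a-210, 154. Eif5a-201 was the largest of them with 168 of 6222 UMIs. Reads from processed copies of these genes elsewhere in the genome cannot be told apart here, and 0 isoforms of the Nanopore matrices carried the name of such a copy.

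The start sites of these genes were searched for a run of pyrimidines, the hallmark of messengers whose translation follows growth signals. The run was a C followed by at least 4 bases that are each C or T, starting within 5 bases either side of the annotated RefSeq start on GRCm38.p6, on the transcript strand. Of 32851 RefSeq start windows 18.3% held such a run. Of the 11 windows matched to 6 of the members, 1 did, that of Eef1a1. Most of the 11 were alternative starts of the single gene Eif5a, so they are not a count of genes. The windows of Eef1a1, Eef1b2 and Eef2 are shown from 15 bases before to 15 bases from the start on, with the run in capitals.
Eef1a1, chr9:78481710-78481739, minus strand: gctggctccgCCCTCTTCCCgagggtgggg
Eef1b2, chr1:63176816-63176845, plus strand: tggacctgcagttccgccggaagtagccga
Eef2, chr10:81176616-81176645, plus strand: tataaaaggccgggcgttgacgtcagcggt
A match describes letters at an annotated start and is not a mapped site. Nor does a window without a run show that the messenger lacks one, since start sites were not mapped here. The 3 genes whose class levels followed Eef1a1 most closely were Rps14, Txndc9 and Tpt1 (Pearson r of 0.93, 0.92 and 0.91). For Eef1b2 they were Rps3, Rps2 and Rps20 (0.90, 0.86 and 0.86), 3 genes of the small ribosomal subunit. These values are correlations of log2 CPM over 16 class sums from the same cells and libraries, among 3058 genes. The Cajal-Retzius-like sums are among the 16.

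Eef1d ran most closely with Gng5, Phgdh and Fabp7 (r of 0.95, 0.94 and 0.92 over the 16 sums), of which Fabp7 is a marker used to name radial glia-like cells. Eif4a2 ran with Ctxn1, Tonsl and Kif5c (0.94, 0.94 and 0.93), where Kif5c codes for a neuronal kinesin. Eif5a ran with Erh, Eif2s2 and Gapdh at no more than 0.87, Eef2 with Zfp821, Hist3h2ba and Ppdpf at no more than 0.88, Eef1g with Mrpl36, Bola1 and Tsta3 at up to 0.94, and Eif4a1 with Rbmx, Arpc4 and Mrpl34 at up to 0.92. Among the 8 genes themselves the lowest r was -0.79, between Eef1d and Eif4a2. The highest was 0.79, between Eef1b2 and Eif5a. All these r values include the sums of the Cajal-Retzius-like class, with 3 and 13 cells. In those sums Eef1g had 447 and 1149 CPM and Eif4a1 703 and 774 CPM. The part of this class in the correlations was not tested.

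Outside the 8 genes, 68 further translation genes were listed and 61 of them tested between classes. For neurons against progenitors 3 were called higher and 13 lower, where 19.5% of all genes were called higher and 20.1% lower. The median log2 fold was -0.14, beside -0.01 over all genes. Of the 42 initiation genes 1 was higher and 7 lower, of 6 tested elongation and termination genes 1 and 2, and of 13 tested regulators and modifying enzymes 1 and 4. For mature glutamatergic-like against radial glia-like cells 2 were higher and 9 lower (17.1% and 17.0% of all genes). For intermediate progenitor-like against radial glia-like cells 3 were higher and 3 lower (7.62% and 8.36% of all genes). With the aliquot in the model the counts were 4 higher and 19 lower for neurons against progenitors, where 22.7% of all genes were called higher and 23.9% lower. They were 7 and 14 for mature glutamatergic-like against radial glia-like cells (21.5% and 22.7%) and 6 and 5 for intermediate progenitor-like cells (10.4% and 11.9%). In the comparisons among neurons 1 was lower in mature than immature glutamatergic-like cells (Eif1b, -0.68, adjusted p = 0.011) and 1 in mature GABAergic-like than mature glutamatergic-like cells (Eif3i, -0.64, adjusted p = 0.036). Of all genes, 1.5% and 5.5% were called lower in these comparisons. Between mature and immature GABAergic-like cells edgeR called 0, and with the aliquot in the model 1 higher and 5 lower (2.61% and 3.41% of all genes).

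Eef1a2, the paralog that takes over from Eef1a1 in adult neurons, was higher in neurons by a log2 fold of 3.06 (SE 0.60, adjusted p = 0.00013). It was low throughout, with 53.5 and 23.2 CPM in mature glutamatergic-like cells, 29 and 63 UMIs, and 0 to 3 UMIs in each progenitor sum. Its level there was far under the 5200.1 and 5471 CPM of Eef1a1 in the same cells. Dhps, which starts the hypusine modification of eIF5A, was higher in neurons by 0.67 (SE 0.20, adjusted p = 0.0063), whereas Eif5a was lower. Eif1a, a factor of start codon scanning, was higher by 0.63 (adjusted p = 0.012). Eif4ebp1 and Pdcd4, inhibitors of the cap-binding complex and of eIF4A, differed by -2.16 (adjusted p = 0.011) and -0.72 (adjusted p = 0.0004), and Dph6, an enzyme of the diphthamide modification of eEF2, by -1.07 (adjusted p = 0.0044). Eif4ebp1 had 86 UMIs over all classes. Eif5a2, the paralog of Eif5a, had no more than 8 UMIs in any sum and was not tested.

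In mature glutamatergic-like against radial glia-like cells, Eef1a2 differed by 3.32 (adjusted p = 0.0031) and Eef1e1, a small protein of the tRNA synthetase complex, by 0.80 (adjusted p = 0.017). Pdcd4 differed by -1.70 (adjusted p = 2.0e-06), Eif4ebp1 by -2.52 and Dph3, another diphthamide enzyme, by -0.97. The first step, from radial glia-like to intermediate progenitor-like cells, had Eif4g2 (0.78, adjusted p = 0.0006), Paip2 (0.74) and Eif4b (0.69, adjusted p = 0.049) higher, beside the higher Eef2 and Eif4a2. Eif4b codes for a partner that stimulates eIF4A. In the same step Eif4ebp1 (-3.47), the ribosome recycling factor Abce1 (-1.06, adjusted p = 0.049) and Eif3j1 (-0.84) were lower, beside the lower Eef1d. Between platforms 31 of 62 tested translation genes were called higher and 11 lower in the Nanopore libraries. Of all genes, 20.1% were called higher and 30.4% lower. The median log2 fold was 0.47 over the translation genes and -0.04 over all genes.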

How the data were processed

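Cells of 1 emulsion were split into aliquots of 190 and 951 cells and sequenced on both platforms. The authors deposited, without normalization, UMI counts by gene (Illumina, Cell Ranger 2.0, mm10) and raw UMI counts per Gencode vM18 isoform (Nanopore, minimap2 and Sicelore), where a UMI was kept when its consensus matched all exons of 1 isoform. A UMI whose read ended early or matched no isoform is missing from the Nanopore counts. So is a UMI not found in the Illumina data, which guided the assignment of barcodes and UMIs to Nanopore reads. Nanopore sums are therefore not a separate measurement of the same cells. The 8 members, the gene lists and the alternatives were chosen with earlier results of these data known, and named genes beyond the members were the 3 listed translation genes with the largest rise and fall among those called in each comparison.

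Cells with at least 1400 genes were clustered with Seurat 5.3.0 (1995 of 2000 variable genes, 11 dimensions, resolution 0.8), without the members and listed translation genes, and clusters were named by marker lists, with thresholds set after the clusters were seen. Of the cells, 7 were called doublets and kept. The 8 classes were rebuilt here and may differ from those of the study. One immature glutamatergic-like cluster of 84 cells had none of its markers among its 10 leading genes. Illumina counts were summed per class and aliquot and tested with edgeR 4.0.16 (TMM, filterByExpr, quasi-likelihood, Benjamini-Hochberg over all genes passing, calls at 0.05), and isoform usage with its diffSpliceDGE. SE is the log2 fold divided by the root of F. Shares carry exact binomial 95% intervals for counting error. DESeq2 1.42.0 and limma 3.58.1 served as alternatives, with R 4.3.3 and Python 3.11.15. Both edgeR tests were also run on simulated counts with the same spread for all genes and with unpaired aliquots. That setting differs from the paired sums used here, and its outcome is not reported.

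The aliquot numbers paired the samples, since each aliquot was 1 cDNA: same-aliquot sums of 2 classes deviated together in all 21 class pairs (r of 0.14 to 0.34), and the 2 platforms with an r of 0.60. Junctions came from Gencode vM21 (GRCm38), and start windows from RefSeq (GRCm38.p6), which matched 6 of the 8 members. Protein sequences were not used here.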

Additional observations from a re-analysis of the deposited data

Results flagged for a closer look

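Eef2, Eif5a and Eef1g were called for a mature against immature difference that was unlike in glutamatergic-like and GABAergic-like cells. The calls came from edgeR's test of the difference itself with the aliquot in the model, an alternative chosen after seeing the data. In that fit 3.38% of all genes were called positive and 1.8% negative. The log2 difference, glutamatergic-like minus GABAergic-like, was 0.46 for Eef2 (-0.20 minus -0.65), 0.60 for Eif5a (0.54 minus -0.05) and 0.52 for Eef1g (0.21 minus -0.31), with adjusted p-values of 0.0084, 0.0059 and 0.0061. Without the aliquot in the model the adjusted p-values were 0.382, 0.314 and 0.336. The immature and mature GABAergic-like clusters have different leading genes (Ebf1 and Isl1 against Sst and Maf), so the comparison between them is not shown to be one of stage.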

How the results depend on the processing

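Alternatives that left out cells with shared barcodes, kept the cells with microglia or endothelial markers, or left out 1 cluster were chosen after seeing the data. Of the 8 members, the edgeR fit called 7 for neurons against progenitors, where 19.5% of all genes were called higher and 20.1% lower. The calls of Eef1g, Eef2 and Eif4a1 were lost with no filter on low counts, at resolution 0.5, and with all variable genes in the clustering. They were also lost without shared barcodes, and with the microglia and endothelial cells kept. Eef1d, Eif4a2, Eef1b2 and Eif5a were called in every alternative of that comparison that gave a test. Between the glutamatergic-like classes 2.15% of all genes were called higher and 1.5% lower. The call of Eif5a there was lost with DESeq2, without a filter, without doublets and with all variable genes. It was also lost without shared barcodes, with the 6 cells kept, and without 1 cluster. Between the mature classes, 3.51% of all genes were called higher and 5.5% lower. The calls of Eef1g and Eif5a there were lost with DESeq2 and without a filter, and without doublets only that of Eef1g was lost.

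With the aliquot as a replicate block, members called went from 1 to 2 between the GABAergic-like classes (2.61% of all genes called higher, 3.41% lower). They went from 2 to 4 between the mature classes (5.96% and 8.73%). For intermediate progenitor-like against radial glia-like cells they went from 3 to 4, with Eef1a1 added (10.4% and 11.9%). The block changed no other call of a member in these comparisons. It also called Eef2, Eif5a and Eef1g in the difference between the glutamatergic-like and GABAergic-like comparisons, an alternative chosen after seeing the data. Over all genes the block raised the called genes from 309 to 954 (glutamatergic-like classes), 240 to 509 (GABAergic-like classes) and 762 to 1242 (mature classes). For isoform usage it raised them from 24 to 39 (intermediate progenitor-like against radial glia-like), 13 to 40, 6 to 12 and 10 to 18 (the 3 comparisons among neurons, in the same order).

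DESeq2 called fewer genes in 6 comparisons: 3064 against 4969 between platforms, 1674 against 2890 for mature glutamatergic-like against radial glia-like cells, 628 against 1351 for intermediate progenitor-like cells, and 73, 85 and 323 in the 3 comparisons among neurons. Nanopore sums called 2154 against 3353 genes for neurons against progenitors and 154 between the GABAergic-like classes. In isoform usage, no filter gave 2 members (Eef1d and Eif4a2) instead of 1 for neurons against progenitors and for mature glutamatergic-like against radial glia-like cells, 181 against 103 genes in the second of these, 1 gene between the glutamatergic-like and 0 between the GABAergic-like classes. For the glutamatergic-like classes limma gave 26 genes and resolution 0.5 gave 23. The cause of these shifts was not tested.

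Leaving out 1 aliquot, the difference between neurons and progenitors ran from 5.65 to 10.5 percentage points for the Eif4a2 share (9.51 with both) and from 48.5 to 51.2 for Eef1d-204. The median share of cells with a UMI over the 8 genes was 79.5% thinned and 97.5% unthinned. At resolution 0.5 the comparison of intermediate progenitor-like cells could not be run, and with 1 aliquot no test was possible. No called value changed sign in these alternatives. Depth limits isoform shares: some class sums of Eef1d and Eif4a2 held fewer than 20 Nanopore UMIs.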

Other observations

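Eef1d-206, which like Eef1d-204 codes for 660 codons, had 9 of the 1188 Eef1d UMIs in classes. In the single Cajal-Retzius-like class, which entered no test, Eef1d-204 had 3 of 6 and 5 of 8 Eef1d UMIs. Nanopore counts thinned to 2000 UMIs per cell gave Eif4a2 in 13 of 65 radial glia-like cells and 165 of 260 mature glutamatergic-like cells. For Eef1d these were 44 of 65 and 57 of 260 cells. In these classes, Nanopore UMIs were 31.4% and 56.1% of Illumina UMIs for Eif4a2, and 87.8% and 67.3% for Eef1d. The part of these gaps in the cell counts was not tested.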
